A study of Mus musculus with 9 samples.

Results

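The matrix metalloproteinases (MMPs), the ADAM and ADAMTS proteases and the tissue inhibitors of metalloproteinases (TIMPs) were followed in the mouse colon. The genes were those of the deposited table whose symbol starts with Mmp, Timp, Adam or Adamts followed directly by a digit. This gave 74 of 35315 genes, made up of 21 Mmp, 30 Adam, 19 Adamts and 4 Timp genes, all protein-coding in the annotation. Adam26a, Adam26b, Adam39, Mmp1a and Mmp1b have such symbols in the annotation and were not analysed here. Gene expression was measured by RNA sequencing of colon from wild-type C57BL/6J mice aged 8 weeks, in 3 groups of 3 libraries. Control mice drank plain water, and no injection is listed for them. The DSS group drank water with 2.5% DSS (dextran sulfate sodium, which damages the lining of the colon) over 7 days, and was given the solvent intravenously on days 2, 4 and 6. The GsMTx4 group received the same DSS, and on the same days GsMTx4, a spider-venom peptide that inhibits mechanically opened cation channels, at 10 mg/kg in place of solvent. DSS and the injections therefore cannot be told apart in DSS against Control.

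MMPs are zinc-dependent proteases that cleave collagens, other matrix proteins and many secreted signals. Most are made as inactive proenzymes, either secreted or anchored in the membrane. ADAMs are membrane proteases that release the outer parts of cell surface proteins, among them growth factors and cytokines, while ADAMTS proteases are secreted and cut proteoglycans, procollagens and related matrix proteins. The TIMPs bind and block the active site of many of these enzymes. In inflamed gut, matrix proteases are known to come from fibroblasts, macrophages, neutrophils and the epithelium.

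Values are FPKM, which is scaled to gene length, so levels can be set beside each other between genes. Fold changes are on the log2(FPKM + 1) scale, with their standard error (SE), and adjusted p-values are from limma with Benjamini-Hochberg adjustment over the 14360 genes tested. In the main fit each gene has 1 spread estimated over all 3 groups, so an SE or p also depends on the group not compared. Group levels are means ± SD with n = 3 libraries. FPKM sums ran from 349125 to 440935 per library, and the steps between low values put the relative depth of the libraries between 0.768 and 1.09 of Control 1, with DSS 3 and the 3 GsMTx4 libraries at 0.768 to 0.876. Epithelial markers summed to 3607 to 4843 FPKM in every library, with Krt8 and Epcam high throughout. Krt8 made up much of that sum, and single markers varied more, with Cdx2 at 5.21 to 44.3 FPKM. In DSS 3 the summed neutrophil markers reached 274.5 FPKM, against 56.2 and 81.9 in DSS 1 and DSS 2 and 1.63 to 2.08 in Control, and that library also stood highest in many of the genes below. The bulk tissue cannot tell fewer cells of a type from less RNA per cell.

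Of the 74 genes, 28 reached 1 FPKM in at least 3 libraries and were tested. The other 46 were not tested, 40 of them because they stayed under 1 FPKM in every library. In DSS against Control 6 members rose (Mmp3, Mmp19, Mmp28, Adamts1, Adamts4 and Timp3), where 6.41% of all tested genes rose, and 1 member fell (Timp4), where 10.7% of all fell, together 7 of 28 beside 17.1% of all. In GsMTx4 against DSS 7 members fell (Mmp2, Mmp3, Mmp15, Mmp19, Mmp28, Adamts1 and Adamts4), where 5.62% of all fell, and 2 rose (Timp4 and Adamts15), where 6.66% of all rose, together 9 of 28 beside 12.3% of all. Timp4 is in the counts of both comparisons, though it passed the filter only through the GsMTx4 libraries, where it was highest. A difference involving that group was thus built into its selection. Mmp3 reached 1 FPKM in the DSS libraries, GsMTx4 1 and GsMTx4 2 and in no Control library. It passed the filter only with the DSS libraries, where it was highest, so its selection favoured a difference involving DSS. No member passed in GsMTx4 against Control by limma, where 0.188% of all genes rose and 0.0487% fell, and 2 members had an unadjusted p under 0.05. Overlap of the libraries, whatever the p-value, was counted among the 28 tested members and the 14360 tested genes only. All DSS libraries lay above all Control libraries for 10 tested members (13.5% of all tested genes) and below them for 3 (33.6%). All GsMTx4 libraries lay below all DSS libraries for 10 tested members (12.8% of all tested genes) and above them for 3 (17.5%). All GsMTx4 libraries lay below all Control libraries for 6 tested members (14.6% of all tested genes) and above them for 2 (5%). The comparisons with DSS share the DSS libraries, so a fall after a rise is given as each comparison's own value. The median log2 fold change of the tested members was 0.25 in DSS against Control, beside -0.17 for all tested genes, and -0.48 in GsMTx4 against DSS, beside 0.07. The rises in DSS numbered 4 without Control 3, 5 without Control 1, Control 2 or DSS 2, and 8 without DSS 1 or GsMTx4 3. The fall in DSS numbered 0 without any 1 Control or any 1 GsMTx4 library and 2 without DSS 3. Rises with GsMTx4 numbered 1 without any 1 Control library or DSS 2 and 0 without GsMTx4 1 or GsMTx4 2, and falls with GsMTx4 numbered 4 without GsMTx4 2.

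**Figure D1:**
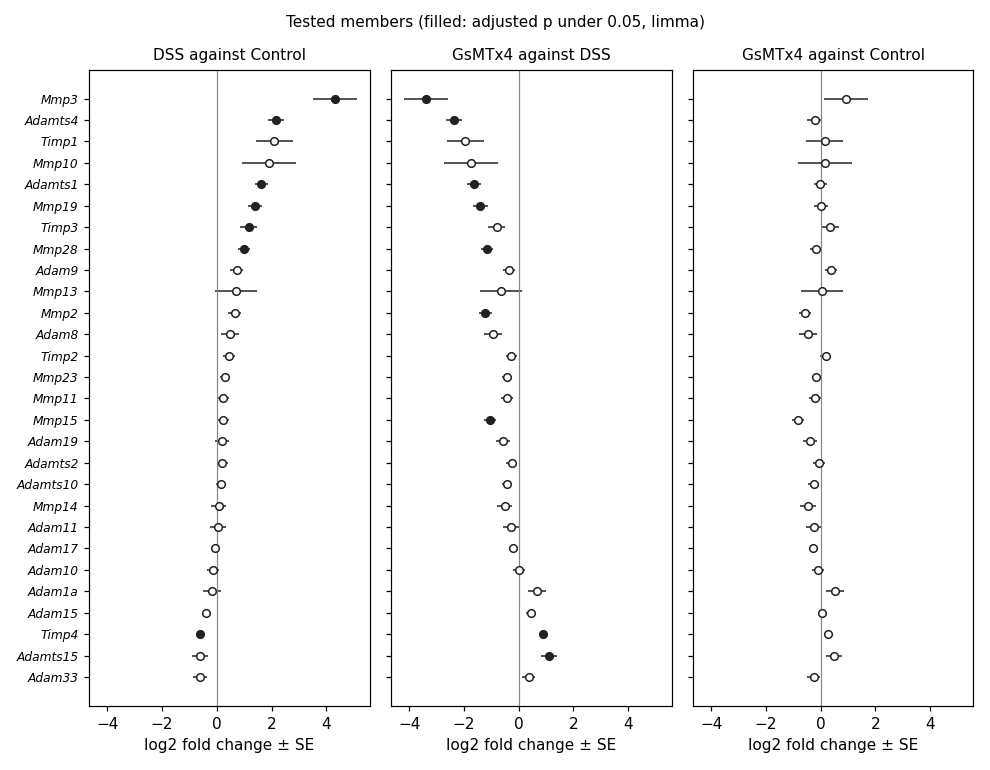
Log2 fold change (horizontal axis, log2(FPKM + 1) scale) with its SE for the 28 tested members, ordered by DSS against Control, in the 3 comparisons; filled points have an adjusted p under 0.05 (limma). Mmp3 and Adamts4 lie farthest right among the filled points of the left panel and farthest left in the middle panel, and no point is filled in the right panel.

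Of the Mmp genes, 8 lie together on chromosome 9 (7272514 to 7699585, GRCm38), a stretch of 427 kb that holds Mmp13, Mmp12, Mmp3, Mmp10, Mmp8, Mmp27, Mmp20 and Mmp7. Mmp3, Mmp10 and Mmp13, the tested members with the largest ratio of the highest to the lowest DSS library, are in it. Their proximal promoters are shown because they share a letter pattern near the start site. RefSeq promoter windows (GRCm38.p6, 250 bases before to 50 after the start) matched 46 of the 74 genes. They were searched for TGANTCA, which includes the TGAGTCA and TGACTCA sites of AP-1 factors and reads the same on both strands. The pattern was found in 6 of the 8 Mmp genes of chromosome 9, namely Mmp3, Mmp7, Mmp10, Mmp12, Mmp13 and Mmp20. It was also found in 5 of the 38 other members with a window. These shares are per gene, with a match in any window of the gene counted. Per window, the pattern was in 11 of 51 member windows (21.6%) and in 7.81% of all 32851 promoter windows of the same length. Adamts1 and Timp3, which rose in DSS, are shown as members of other chromosomes without a match in the window. The 100 bases before the start are chr9:7445722-7445821 (Mmp3), chr9:7502242-7502341 (Mmp10), chr9:7272414-7272513 (Mmp13) and chr9:7347274-7347373 (Mmp12, at 1 of its 2 annotated starts), all on the plus strand, chr16:85803114-85803213 on the minus strand (Adamts1) and chr10:86300312-86300411 on the plus strand (Timp3). Capitals mark TGANTCA.
Mmp3: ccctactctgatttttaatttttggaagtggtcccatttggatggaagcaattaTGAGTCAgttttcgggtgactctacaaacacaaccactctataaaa
Mmp10: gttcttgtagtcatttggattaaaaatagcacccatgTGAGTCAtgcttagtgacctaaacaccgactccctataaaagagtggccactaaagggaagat
Mmp13: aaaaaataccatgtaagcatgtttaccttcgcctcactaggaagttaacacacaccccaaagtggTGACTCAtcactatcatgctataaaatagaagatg
Mmp12: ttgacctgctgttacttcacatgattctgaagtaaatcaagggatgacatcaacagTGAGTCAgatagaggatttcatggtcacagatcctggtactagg
Adamts1: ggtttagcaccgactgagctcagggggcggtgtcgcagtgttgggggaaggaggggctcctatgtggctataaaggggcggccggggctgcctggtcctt
Timp3: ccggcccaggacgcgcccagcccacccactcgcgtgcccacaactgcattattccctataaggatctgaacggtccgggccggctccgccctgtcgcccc
The first base of the pattern lies 46 bases before the start in Mmp3, 63 in Mmp10, 35 in Mmp13 and 44 in Mmp12. Starts here are RefSeq starts. For Timp3 the RefSeq start lies inside the gene position given below, so part of its printed stretch does as well. A match describes the letters only, and no binding was measured.

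Stromelysins degrade a broad range of matrix proteins and activate other proMMPs. Mmp3, stromelysin 1 (chromosome 9, 7445822 to 7455975), stood at 0.335, 0.552 and 0.491 FPKM in Control 1 to 3, at 5.84, 37.3 and 91.6 FPKM in DSS 1 to 3, and at 4.47, 1.37 and 0.656 FPKM in GsMTx4 1 to 3. Each DSS library was above every other library, and the GsMTx4 libraries lay between the 2 other groups. The mean went from 0.459 ± 0.112 to 44.9 ± 43.4 FPKM in DSS, a ratio of means of 97.8 (4.31 ± 0.81 on the log2 scale, SE, adjusted p = 0.00921, limma). Mmp3 entered the test only with the DSS libraries, so its selection favoured a difference involving DSS. Without a filter on low values the rise in DSS was still called. Against DSS, the GsMTx4 mean of 2.17 ± 2.03 FPKM was a change of -3.38 ± 0.81 (adjusted p = 0.0293, limma). That call was lost without DSS 2 (adjusted p = 0.0775), DSS 3 (0.069), GsMTx4 2 (0.0999) or GsMTx4 3 (0.0775), when all genes were tested without a filter (0.085), in a fit of the compared groups only (0.081) and with the replicate number as a block (0.0593). Against Control, GsMTx4 libraries were all higher in Mmp3, by 0.93 ± 0.81, and the difference did not pass (adjusted p = 0.737, limma). That SE also holds the wide spread of the DSS libraries.

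Mmp10, stromelysin 2 (chromosome 9, 7502352 to 7510240), was high in a single library. It stood at 1.06, 0.954 and 0.863 FPKM in Control, at 0.566, 4.06 and 49.3 FPKM in DSS 1 to 3, and at 1.64, 0.862 and 1.12 FPKM with GsMTx4. DSS 1 lay below every Control library, so the groups overlapped, and neither comparison with DSS passed (1.91 ± 0.98, adjusted p = 0.196 against Control, and -1.75 ± 0.98, adjusted p = 0.265 for GsMTx4 against DSS, limma). Without DSS 1, Mmp10 passed in DSS against Control (adjusted p = 0.0369). Mmp11, stromelysin 3, stayed between 0.315 and 1.69 FPKM over the 9 libraries, and its exons overlap those of Chchd10 on the opposite strand, at 46.1 to 91.4 FPKM.

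Collagenases cut fibrillar collagen. Mmp13, collagenase 3 (chromosome 9, 7272514 to 7283331), followed the same order of DSS libraries as Mmp10. It was at 2.98, 5.28 and 2.96 FPKM in Control, at 1.32, 4.72 and 31.1 FPKM in DSS 1 to 3, and at 2.83, 3.91 and 5.01 FPKM with GsMTx4. Only DSS 3 exceeded the highest Control library, and the difference did not pass (0.70 ± 0.77, adjusted p = 0.532, limma). Without DSS 3 its direction turned, to -0.35 (adjusted p = 0.553), and GsMTx4 against DSS turned from -0.64 ± 0.77 to 0.41. Mmp8, the neutrophil collagenase, reached 1 FPKM in DSS 2 and DSS 3 only and was not tested. Its level was 0 to 0.126 FPKM in Control, 0.611, 1.75 and 3.74 FPKM in DSS 1 to 3, and 0.213 to 0.487 FPKM with GsMTx4, so the groups did not overlap.

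Gelatinases cut denatured collagen and basement membrane. Mmp2, gelatinase A, a product of fibroblasts (chromosome 8, 92827291 to 92853420), was among the most abundant members, at 14.3, 17.0 and 19.4 FPKM in Control, 21.7, 26.3 and 34.3 FPKM in DSS and 14.0, 11.7 and 8.00 FPKM with GsMTx4. All 3 groups were apart, with DSS highest and GsMTx4 lowest. The rise of the mean from 16.9 ± 2.54 to 27.4 ± 6.39 FPKM did not pass (0.65 ± 0.23, adjusted p = 0.0774, limma), and it passed after median-of-ratios scaling (0.0299) and without GsMTx4 3 (0.0427). With GsMTx4 Mmp2 fell by 1.22 (SE 0.23) on the log2 scale from DSS, to 11.3 ± 3.04 FPKM (adjusted p = 0.0121, limma), and its adjusted p stayed at or under 0.0447 over the alternatives. GsMTx4 against Control was -0.57 ± 0.23 (adjusted p = 0.447, limma). Mmp9, gelatinase B, carried by neutrophils, was too low to test, with 0.260 to 0.466 FPKM in Control, 0.828, 0.646 and 3.77 FPKM in DSS 1 to 3 and 0.111 to 0.605 FPKM with GsMTx4.

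Membrane-type MMPs act at the cell surface. Mmp14, which activates proMMP2 (chromosome 14, 54431612 to 54445364), was at 12.3 to 14.6 FPKM in Control, at 12.1, 11.01 and 20.2 FPKM in DSS 1 to 3 and at 11.1, 12.3 and 5.99 FPKM in GsMTx4 1 to 3. GsMTx4 libraries were all below Control, GsMTx4 2 only just, and overlapped DSS (-0.52 ± 0.28, adjusted p = 0.239, limma). Mmp15 (chromosome 8, 95352268 to 95375080) went the same way with less spread, at 15.3, 16.3 and 21.7 FPKM in Control, 23.6, 18.9 and 19.4 FPKM in DSS and 13.4, 7.93 and 7.86 FPKM with GsMTx4. DSS did not differ from Control by the test (0.21 ± 0.22, adjusted p = 0.506), and Mmp15 fell by 1.04 (SE 0.22) with GsMTx4 against DSS (adjusted p = 0.0181, limma). This call was lost without DSS 1 (adjusted p = 0.0517) or GsMTx4 2 (0.0705) and in a fit of the compared groups only (0.051). GsMTx4 was also below every Control library in Mmp15, at 9.73 ± 3.17 against 17.8 ± 3.45 FPKM, a difference that did not pass (-0.83 ± 0.22, unadjusted p = 0.00385, adjusted p = 0.255, limma). Mmp16, Mmp17 and Mmp24 stayed under 1 FPKM, and Mmp25, an MMP of leukocytes, reached 1.33 FPKM in DSS 3 alone.

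Among the other secreted MMPs, Mmp19 and Mmp28 rose. Mmp19 (chromosome 10, 128790910 to 128800824) was tight in Control, at 1.91, 2.11 and 2.14 FPKM, and stood at 4.50, 6.28 and 12.1 FPKM in DSS 1 to 3 and at 2.39, 1.77 and 2.07 FPKM with GsMTx4. GsMTx4 and Control overlapped and DSS was above both, with 1.40 ± 0.27 in DSS against Control (adjusted p = 0.0103) and -1.40 ± 0.27 in GsMTx4 against DSS (adjusted p = 0.0143, limma). The GsMTx4 call was lost without GsMTx4 2 (adjusted p = 0.0576) and in a fit of the compared groups only (0.052). Mmp19 shares exon sequence with Tmem198b on the opposite strand, which was lower in DSS (1.89 to 2.95 FPKM) than in Control (3.01 to 3.60 FPKM).

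Mmp28, epilysin, an MMP of epithelia (chromosome 11, 83440768 to 83463071), was at 1.79, 1.83 and 1.51 FPKM in Control, at 5.31, 3.99 and 3.88 FPKM in DSS and at 2.30, 1.10 and 0.960 FPKM with GsMTx4. Like Mmp15, and unlike Mmp2, Mmp3 and Mmp19, it was highest in DSS 1. It rose by 0.99 ± 0.21 in DSS (adjusted p = 0.0144, and 0.0582 without Control 3) and fell by 1.17 (SE 0.21) with GsMTx4 against DSS (adjusted p = 0.0108, limma). Of the 7 epithelial markers 1 also fell with GsMTx4 against DSS, Krt20, from 795.6 to 441.8 FPKM (adjusted p = 0.0251, limma), and its part in the Mmp28 result was not tested. Its exons overlap 1700020L24Rik on the opposite strand, which moved with it, at 1.09 to 1.32 FPKM in Control, 2.39 to 4.07 FPKM in DSS and 0.229 to 1.35 FPKM with GsMTx4. Whether the counting used strand is not given in the sources used here, so reads of the 2 genes cannot be told apart. Mmp23 did not pass in any comparison, at 1.33 to 3.12 FPKM over the 9 libraries. Matrilysin, Mmp7, was listed at 0.106 to 0.299 FPKM in Control and DSS and at 0 in all GsMTx4 libraries, and Mmp12, the macrophage elastase, stayed at or under 0.867 FPKM, so neither was tested. Mmp20, Mmp21 and Mmp27 did not exceed 0.261 FPKM in any library.

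**Figure D2:**
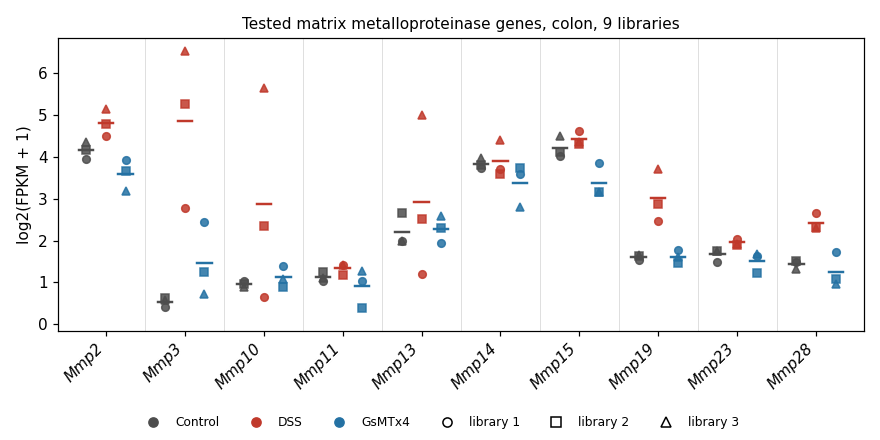
Levels of the 10 tested Mmp genes as log2(FPKM + 1) (vertical axis) in each of the 9 libraries; colours give the group, symbols the library number within the group, and bars the group mean of the log2 values. Mmp3, Mmp10 and Mmp13 spread widely over the DSS libraries, with DSS 3 on top, while Mmp2 and Mmp15 are lowest with GsMTx4.

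All TIMPs were tested. Timp1, the inducible inhibitor, also known for cytokine-like effects on cells (chromosome X, 20870166 to 20874735, inside Syn1), was at 2.46, 3.17 and 2.41 FPKM in Control, at 5.24, 9.22 and 60.3 FPKM in DSS 1 to 3 and at 3.92, 2.49 and 2.90 FPKM with GsMTx4. Each DSS library was above every other library, yet the spread within DSS was so wide that neither comparison passed (2.10 ± 0.68, adjusted p = 0.0614 against Control, and -1.95 ± 0.68, adjusted p = 0.0904 for GsMTx4 against DSS, limma). Leaving out DSS 1 (adjusted p = 0.0229) or DSS 3 (0.0247), or median-of-ratios scaling (0.0478), brought Timp1 past the threshold in DSS against Control, and in GsMTx4 against DSS it passed without DSS 1 (0.0364).

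Timp2, the broadly expressed TIMP that also takes part in activating proMMP2, was the steadiest, at 14.6 to 23.6 FPKM in Control, 22.8 to 33.6 FPKM in DSS and 19.4 to 24.8 FPKM with GsMTx4 (0.44 ± 0.21 in DSS, adjusted p = 0.163, limma). Timp3, which is bound to the matrix and inhibits ADAM17 and several ADAMTS proteases besides MMPs (chromosome 10, 86300372 to 86349506), was at 8.88, 11.8 and 11.97 FPKM in Control, 15.5, 25.7 and 40.9 FPKM in DSS 1 to 3 and 16.1, 11.5 and 15 FPKM with GsMTx4. It rose by 1.16 ± 0.30 in DSS (adjusted p = 0.0309, limma). Leaving out Control 1 (adjusted p = 0.101), Control 2 (0.0784), Control 3 (0.072), DSS 2 (0.076) or DSS 3 (0.0626), or the filter on low values (0.0799), ended that call. GsMTx4 overlapped DSS in Timp3 and the difference did not pass (-0.81 ± 0.30, adjusted p = 0.109, and 0.0261 without DSS 1). The overlapping gene Syn3 was at 0.121 FPKM at most.

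Timp4, the TIMP with the most restricted expression, was the only member lower in DSS by the test (chromosome 6, 115241892 to 115252205). It stood at 0.759, 0.801 and 0.781 FPKM in Control, at 0.229, 0.170 and 0.117 FPKM in DSS and at 1.03, 1.02 and 1.39 FPKM with GsMTx4, so the 3 groups were apart. It entered the test only through the GsMTx4 libraries, the 3 in which it reached 1 FPKM, so a difference involving that group was built into its selection. Without a filter on low values both calls held. Timp4 fell by 0.60 (SE 0.14) in DSS (adjusted p = 0.0193) and was higher by 0.87 ± 0.14 with GsMTx4 against DSS (adjusted p = 0.00678, limma), while 0.27 ± 0.14 for GsMTx4 against Control did not pass (adjusted p = 0.56). The fall in DSS no longer passed when Control 1 (adjusted p = 0.0577), Control 2 (0.0779) or Control 3 (0.0687) was left out, or with the replicate number as a block (0.051), and without any 1 GsMTx4 library Timp4 was below the filter. Timp4 overlaps exons of Syn2 on the opposite strand, which was at 1.88 to 1.97 FPKM in Control, 0.158 to 1.06 FPKM in DSS and 1.03 to 1.82 FPKM with GsMTx4. The summed hepatocyte and pancreatic acinar markers had the same order of groups. The 5 hepatocyte markers summed to 20.0 to 25.7 FPKM in Control, 2.39 to 5.92 FPKM in DSS and 30.7 to 48.6 FPKM with GsMTx4, and of the single genes only Alb had that order of means. Ttr was highest in Control (21.5 FPKM, against 3.43 in DSS and 16.8 with GsMTx4), and Apoa1, Fgb and Serpina1a, at 0 in some library, were at most 0.122 FPKM in the Control and DSS libraries. The 3 acinar markers summed to 57.5 to 64.3, 20.9 to 25.4 and 64.9 to 126.3 FPKM, nearly all of it Cela1, with Ctrb1 and Pnlip at 0 in all Control and GsMTx4 libraries. Their part in the Timp4 result was not tested.

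**Figure D3:**
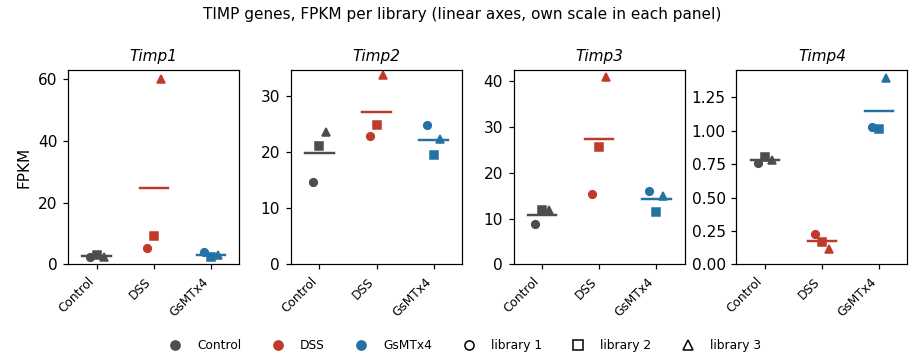
FPKM of the 4 TIMP genes (vertical axes, linear, each panel on its own scale) in the 9 libraries by group, with the group mean as a bar and the library number as the symbol. Timp1 reaches 60.3 FPKM in DSS 3, and Timp4 is the only one whose DSS libraries lie below the other groups.

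ADAMTS1 and ADAMTS4 cleave the proteoglycans aggrecan and versican, and their genes had the smallest adjusted p-values of the members in both comparisons with DSS. Adamts4 (chromosome 1, 171250421 to 171260637) was at 0.509, 1.22 and 1.07 FPKM in Control, at 7.09, 5.86 and 10.1 FPKM in DSS and at 1.01, 0.998 and 0.0992 FPKM with GsMTx4. It rose by 2.16 ± 0.28 in DSS, from 0.931 ± 0.373 to 7.67 ± 2.16 FPKM (adjusted p = 0.0022), and changed by -2.37 ± 0.28 with GsMTx4 against DSS (adjusted p = 0.00252, limma). Its adjusted p was at most 0.0162 and 0.0146 over the alternatives in which it was tested.

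Adamts1 (chromosome 16, 85793827 to 85803113) stood at 0.701, 1.76 and 1.74 FPKM in Control, 6.31, 5.31 and 7.22 FPKM in DSS and 2.11, 1.31 and 0.756 FPKM with GsMTx4. GsMTx4 and Control overlapped and DSS lay above both, by 1.63 ± 0.25 against Control (adjusted p = 0.00455) and with -1.64 ± 0.25 for GsMTx4 against DSS (adjusted p = 0.00645, limma). No alternative in which it was tested lost either call of Adamts1. The DSS libraries of Adamts1 and Adamts4 were closer together than those of Mmp3, with the highest less than 2 times the lowest.

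Adamts15, a further proteoglycan-cleaving member (chromosome 9, 30899155 to 30922452), went the other way. It was at 6.07, 3.63 and 4.10 FPKM in Control, 3.63, 2.87 and 1.63 FPKM in DSS and 9.73, 6.92 and 4.40 FPKM with GsMTx4. It was higher by 1.09 ± 0.29 with GsMTx4 against DSS (adjusted p = 0.0425, limma), and DSS against Control did not pass (-0.61 ± 0.29, adjusted p = 0.173). The rise was lost in 11 of 16 alternatives, among them leaving out Control 1 (adjusted p = 0.0517), Control 2 (0.0633), Control 3 (0.0673), DSS 2 (0.0782), DSS 3 (0.116), GsMTx4 1 (0.0908) or GsMTx4 2 (0.123). Adamts10 was at 1.87 to 4.56 FPKM over the 9 libraries and did not pass, nor did Adamts2, a procollagen N-proteinase. The other 14 Adamts genes were not tested. Of these Adamts9, another aggrecanase, was at 0.273 to 0.339 FPKM in Control, 0.766, 0.825 and 1.66 FPKM in DSS 1 to 3 and 0.457 to 0.661 FPKM with GsMTx4, with no overlap between the groups, and Adamts5 was at 0.172 to 0.224, 0.284 to 0.726 and 0.228 to 0.387 FPKM.

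No ADAM gene passed in any comparison among the 9 tested, at an adjusted p under 0.05 by limma, though some passed in alternative fits. Those were Adam9, Adam15, Adam8 and, in GsMTx4 against DSS without GsMTx4 3, Adam1a. Adam10, the main sheddase of Notch receptors and E-cadherin (chromosome 9, 70678997 to 70780229), was the most abundant member of the class, at 30.3 to 33.3 FPKM in Control, 20.1, 33.2 and 36.8 FPKM in DSS 1 to 3 and 24.1 to 32.8 FPKM with GsMTx4. Its change in DSS was -0.13 ± 0.22 (adjusted p = 0.686, limma), and it turned to 0.12 without DSS 1 and to 0.04 after median-of-ratios scaling. Adam17, which releases TNF and EGF receptor ligands (chromosome 12, 21323509 to 21373632), stayed between 5.85 and 9.96 FPKM over all libraries (-0.08 ± 0.15 in DSS, adjusted p = 0.723, and 0.08 after median-of-ratios scaling). The GsMTx4 libraries of Adam17 were all below Control.

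Adam9, a widely expressed sheddase (chromosome 8, 24949611 to 25016927), was at 16.3, 12.3 and 16.9 FPKM in Control, 21.2, 23.1 and 33.3 FPKM in DSS and 23.7, 20.9 and 15.2 FPKM with GsMTx4. DSS lay above Control without overlap, with 0.72 ± 0.22 and an adjusted p of 0.0534 (limma). Adam9 passed after median-of-ratios scaling (adjusted p = 0.0185), without GsMTx4 3 (0.0349), and with a minimum mean of 5 FPKM or a fit of the compared groups only (0.0498 each). Adam15, an ADAM of epithelium and endothelium, was lower in all DSS libraries (7.98 to 11.8 FPKM) than in Control (11.9 to 13.4 FPKM), by a log2 fold change of -0.39 ± 0.15 that did not pass (adjusted p = 0.104, limma). Without DSS 3, Adam15 passed in that comparison (adjusted p = 0.0277) and was called higher with GsMTx4 against DSS. Adam8, carried by myeloid cells, was at 2.13 to 2.89 FPKM in Control, 3.29, 2.10 and 6.99 FPKM in DSS 1 to 3 and 0.841 to 1.97 FPKM with GsMTx4 (-0.94 ± 0.33 against DSS, adjusted p = 0.0888, and 0.0416 without DSS 2, limma). The 21 untested Adam genes were all under 1 FPKM.

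**Figure D4:**
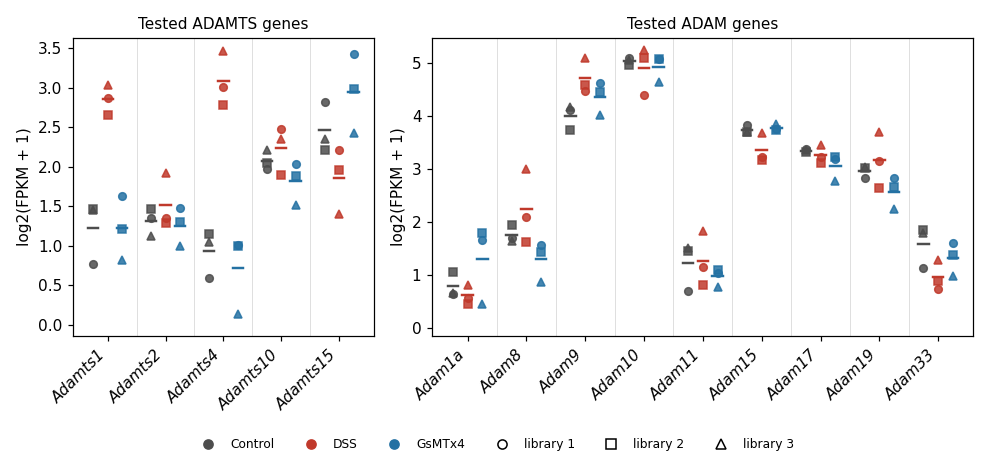
Levels of the 5 tested Adamts genes (left) and the 9 tested Adam genes (right) as log2(FPKM + 1) in the 9 libraries; colours give the group, symbols the library number and bars the group mean of the log2 values. The DSS points of Adamts1 and Adamts4 stand clear of the other groups, while most Adam genes overlap between groups.

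Added over all its genes, each family had its highest sum in DSS 3. The 21 Mmp genes summed to 54.5, 62.9 and 70.1 FPKM in Control, 83.1, 121.2 and 277.5 FPKM in DSS 1 to 3 and 58.2, 44.8 and 37.5 FPKM with GsMTx4. Mmp3, Mmp10 and Mmp13 together made up 6.15 to 10.8% of that sum in Control, 9.29, 38.1 and 62.0% in DSS 1 to 3 and 13.7 to 18.1% with GsMTx4. The 4 Timp genes summed to 26.7 to 38.8, 43.7 to 134.9 and 34.4 to 45.9 FPKM in the 3 groups. The ratio of the Mmp sum to the Timp sum was 2.04, 1.71 and 1.81 in Control and 1.90, 2.03 and 2.06 in DSS, so these groups overlapped, and it was 1.27, 1.30 and 0.901 with GsMTx4, below every other library. Without Mmp3, Mmp10 and Mmp13 the ratio was 1.53 to 1.88 in Control, 1.72, 1.25 and 0.782 in DSS 1 to 3 and 0.738 to 1.13 with GsMTx4, and DSS and GsMTx4 then overlapped. The ratio is a description of mRNA levels and was not tested.

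**Figure D5:**
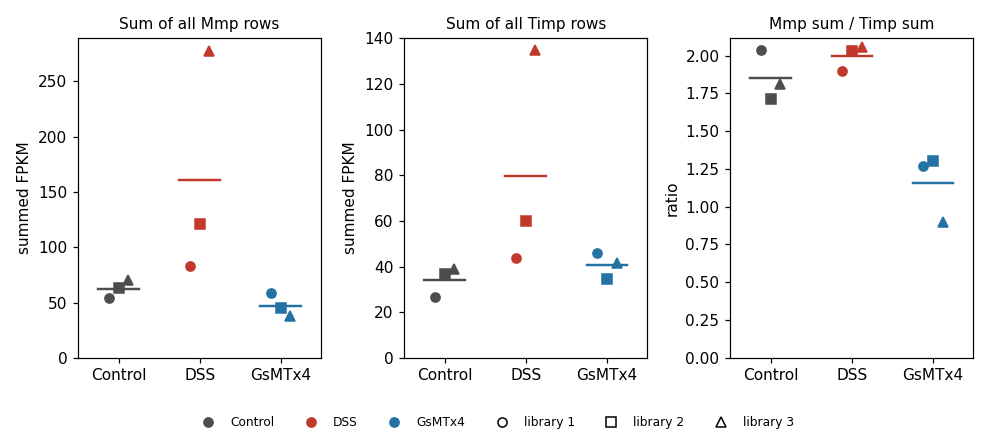
Summed FPKM of the 21 Mmp genes (left) and the 4 Timp genes (middle), and the ratio of these sums (right), in the 9 libraries by group with the group mean as a bar; all axes are linear and start at 0. Both sums are highest in DSS 3 at 277.5 and 134.9 FPKM, and the ratio is lowest in the GsMTx4 libraries, at 0.901 to 1.30.

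DSS 3 was the highest of all 9 libraries for 18 of the 28 tested members, 64.3%, beside 17.3% of all tested genes. It was the highest of the 3 DSS libraries for 21 members, 75.0%, beside 43.9% of all tested genes. Among DSS libraries, the summed markers of fibroblasts, neutrophils, smooth muscle, endothelium, B and plasma cells and acinar cells were also highest in DSS 3. For acinar cells the margin was small (24.1, 20.9 and 25.4 FPKM in DSS 1 to 3). Those of epithelium, macrophages, T cells, adipocytes and hepatocytes were not highest there. The 8 fibroblast markers summed to 131.6 to 153.1 FPKM in Control, 139.2, 205.4 and 297.1 FPKM in DSS 1 to 3 and 115.5 to 142.0 FPKM with GsMTx4. Of them 1 rose in DSS (Pdpn) and 3 fell with GsMTx4 against DSS (Col1a1, Col1a2 and Pdgfra), and none was at 0 in any library. The 7 neutrophil markers summed to 3.81 to 42.1 FPKM with GsMTx4, and of their defining genes Mpo, Camp, Ngp, Cxcr2 and S100a9 were at 0 in some library. Among 8 macrophage and monocyte markers 4 rose in DSS and 2 fell with GsMTx4 against DSS, and their sums were 241.8 to 382.1 FPKM in Control, 629.5 to 735.0 FPKM in DSS and 379.1 to 464.0 FPKM with GsMTx4. By limma, 3 of 5 endothelial, 4 of 6 B and plasma cell and both tested adipocyte markers rose in DSS, and 0 of 6 T cell and 0 of 5 smooth muscle markers passed. The smooth muscle markers summed to 312.6 to 536.2 FPKM in Control, 170, 458.6 and 677.4 FPKM in DSS 1 to 3 and 429.6 to 568.1 FPKM with GsMTx4, the same order of DSS libraries as Mmp3, Mmp10, Mmp13, Timp1 and Timp3. The part of these cells in the MMP, ADAMTS and TIMP results was not tested.

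Genes that act with these proteases were followed as lists. Of 5 tested plasminogen system genes, whose product plasmin activates proMMPs, 2 rose and 1 fell in DSS, and with GsMTx4 against DSS 2 fell and 1 rose. The urokinase receptor Plaur went from 1.61 to 11.4 FPKM (2.21 ± 0.20, adjusted p = 0.000663) and was at 2.72 FPKM with GsMTx4 (-1.70 ± 0.20 against DSS, adjusted p = 0.00269), and the tissue plasminogen activator gene Plat went from 1.28 to 7.50 FPKM (1.89 ± 0.19, adjusted p = 0.000863) and was at 1.30 FPKM with GsMTx4 (-1.88 ± 0.19, adjusted p = 0.00151, limma). The plasminogen receptor gene Plgrkt moved the other way, from 30.3 to 14.0 FPKM in DSS and 25.9 FPKM with GsMTx4. The list's median log2 fold change was 1.04 in DSS against Control, beside -0.17 for all genes, and -0.51 in GsMTx4 against DSS, beside 0.07. Among 12 tested activators and inhibitors outside the families 1 rose and 1 fell in DSS (median 0.13), namely Lcn2, whose product binds MMP9, at 2.41 ± 0.34, and the kallikrein gene Klk1 at -1.44 ± 0.33. With GsMTx4 against DSS 1 of them fell, Lcn2 at -1.95 ± 0.34 (median -0.25). Klk1 has close relatives that can share reads, so its value is uncertain.

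Of 23 tested partners and substrates of ADAMs, 5 rose and 1 fell in DSS (median 0.22), and 4 fell with GsMTx4 against DSS (median -0.20). Of the EGF receptor ligands in the list, Areg, Ereg and Hbegf passed in both comparisons, Tgfa and Btc in neither, and Epgn was not tested. Areg went from 14.4 to 39.9 FPKM (1.37 ± 0.22, adjusted p = 0.00486) and was at 12.4 FPKM with GsMTx4 (-1.58 ± 0.22), Hbegf changed by -1.37 ± 0.24 with GsMTx4 against DSS, and Ereg changed by 2.92 ± 0.24 and -2.76 ± 0.24 in the 2 comparisons (limma). The TNF receptor gene Tnfrsf1a rose by 0.79 ± 0.13 in DSS. Among 9 ADAMTS-like proteins and substrates 2 rose in DSS (median 0.42) and 3 fell with GsMTx4 against DSS (median -0.53). Adamtsl4 was at 4.82, 10.6 and 3.50 FPKM in Control, DSS and GsMTx4, and Vcan, the versican cut by ADAMTS1 and ADAMTS4, at 1.22, 3.33 and 1.21 FPKM, with 0.93 ± 0.26 in DSS (adjusted p = 0.0391) and -0.95 ± 0.26 with GsMTx4 against DSS (adjusted p = 0.0459, limma). Papln fell by 0.91 (SE 0.21) with GsMTx4 against DSS.

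Among 14 tested inducers of matrix proteases, which are cytokines, their receptors and transcription factors, 3 rose and 2 fell in DSS (median 0.59) and 3 fell with GsMTx4 against DSS (median -0.50). The AP-1 subunit gene Junb was at 66.8, 103.3 and 61.8 FPKM in Control, DSS and GsMTx4, with 0.63 ± 0.14 in DSS (adjusted p = 0.0179) and -0.73 ± 0.14 with GsMTx4 against DSS (adjusted p = 0.0137, limma). Fos, Jun, Fosl2 and Atf3 of the same list passed in neither comparison. They changed by -0.36, -0.05, 0.09 and 0.30 in DSS, and by 0.12, -0.65, -0.31 and -0.09 with GsMTx4 against DSS. Fosl1 was not tested. The oncostatin M receptor gene Osmr rose by 1.25 ± 0.32 in DSS, and the ETS factor gene Etv4 fell by 2.16 (SE 0.28). Il1r1, the interleukin-1 receptor gene, fell by 1.48 (SE 0.29) and Tgfb1 by 1.19 (SE 0.20) with GsMTx4 against DSS.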

How the data were processed

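RNA from 9 colon libraries was sequenced. The authors deposited 1 table of FPKM values for 35315 genes. Per the submitters' processing notes, cutadapt and FastQC were used with GRCm38. Which aligner and FPKM program were used, and whether strand was used, is not given in the sources used here. The labels do not say that libraries came from separate mice, so p-values reflect only how these samples spread, which may be technical. Absolute depth is unknown. Relative depth is the commonest ratio between values under 0.05 FPKM.

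Symbols and positions came from GENCODE M21 (35196 genes with a symbol), promoters from RefSeq. Genes at 1 FPKM or more in at least 3 of 9 libraries (14360) were fitted together on log2(FPKM + 1) by limma 3.58.1 in R 4.3.3 with 1 mean per group and trend (6 residual degrees of freedom). Tests were two-sided, with Benjamini-Hochberg adjustment over all tested genes and a threshold of 0.05. The fit was run on simulated data with normal noise and the same spread in all groups. Changes were added only to genes of higher mean level. Genes whose spread differs between groups, such as Mmp3, were not covered by it. Figures used matplotlib 3.10.9.

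Members, lists and the rule for named genes (all Mmp and Timp genes, passing Adam and Adamts genes, Adam10, Adam17, the most abundant of each class, and up to 3 passing genes a list and comparison) were chosen with earlier results of these data known. The alternatives were another pseudocount, filter, scaling, sample set, spread model or block, and each library left out.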

Additional observations from a re-analysis of the deposited data

How the results depend on the processing

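The 37 member results followed were a part of all results of the tested members. Alternatives shared libraries with the main fit, so a kept direction is no independent support. Among those 37 results, 601 of 606 alternative values kept the direction. The 5 that turned belonged to results that had not passed: Adam10 in DSS against Control (0.04 after median-of-ratios scaling, 0.12 without DSS 1), Adam17 (0.08 after median-of-ratios scaling) and Mmp13 without DSS 3. Leaving out 1 library gave log2 fold changes of -0.30 to 0.12 for Adam10 in DSS against Control, and for Mmp13 of -0.35 to 1.55 in DSS against Control and -1.49 to 0.41 in GsMTx4 against DSS. The cause of these turns was not tested. With a minimum mean of 5 FPKM, which left 14 members in the fit, 3 rose and 0 fell in DSS, and 0 rose and 3 fell with GsMTx4 against DSS. Rises with GsMTx4 numbered 1 with no filter on low values, after rescaling to the same sum (TPM), after median-of-ratios scaling and in a fit of the compared groups only, where falls numbered 4. Leaving out 1 library at a time gave 4 to 8 rises and 0 to 2 falls in DSS, and 0 to 2 rises and 4 to 8 falls with GsMTx4. Median-of-ratios scaling moved the median of all genes in DSS against Control by 0.143 and the share of higher calls from 37.4 to 58.6%, with 9 members higher and 1 lower, and TPM by -0.106, with 6 and 1. Same-numbered libraries did not deviate together (correlations -0.23 to 0.10, best match with the same number in 5 of 18). With the replicate number as a block 6 members rose and 0 fell in DSS, and 2 rose and 6 fell with GsMTx4 against DSS. Over the alternatives the rises of all genes in DSS ran from 383 to 1342. Depth was lowest in GsMTx4 2 and GsMTx4 3, which limits the low members there.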
